A study of Homo sapiens with 6 samples.

Results

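De novo purine synthesis was followed through 7 of its enzymes in a CRISPR knockout screen. The cells were HAP1, a near-haploid human line that goes back to a leukaemia. The genes were GART, PFAS, PAICS, ADSL, ATIC, ADSS and IMPDH2, out of 7090 genes tested. They were chosen by name, as enzymes of one pathway, after the difference between SETD2-mutant and parental cells was known in these data, where ATIC was among the highest genes. The difference between the lines is therefore given as a description, with no test of the 7 genes. Each gene was targeted by 10 guides, 70 guides in all, and all 70 passed the filter on library counts, the lowest with a mean library count of 81.5.

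The screen held 3 groups of 2 samples each: SETD2-mutant HAP1 cells, parental HAP1 cells and the guide library. SETD2 encodes the enzyme that places trimethylation on lysine 36 of histone H3, and the labels name 1 SETD2-mutant genotype without saying how many clones it stands for. Both lines received the guide virus at a multiplicity of infection of 0.7, were divided into replicates after that and were kept in puromycin for 12 doublings. Replicates of a line thus share a transduction, and the spread between them is only what arose after it. No p-value here covers a spread between transductions. How the library samples were taken is not stated. Guide counts report how many cells carry each guide, so slower growth and cell death cannot be told apart.

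Cells build purines by assembling the ring step by step on a ribose phosphate, a route that ends in inosine monophosphate (IMP). IMP is then turned into AMP or into GMP along separate branches, and both feed RNA, DNA and energy metabolism. Dividing cells can also recover ready-made bases and nucleosides through salvage enzymes such as HPRT1, so the need for the de novo route depends in part on what the medium offers.

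The members are given in the order of the route. GART (chromosome 21, 33503931 to 33542893) carries several early steps in 1 protein, among them a formyl transfer from folate. PFAS (chromosome 17, 8247608 to 8270486) adds a nitrogen from glutamine before the first ring closes. PAICS (chromosome 4, 56410507 to 56464578) adds carbon dioxide and aspartate. ADSL (chromosome 22, 40346500 to 40387527) removes fumarate and acts again in the AMP branch. ATIC (chromosome 2, 215312059 to 215368592) adds the last carbon from folate and closes the ring to IMP. ADSS (chromosome 1, 244408494 to 244452060), now named ADSS2, opens the AMP branch, and IMPDH2 (chromosome 3, 49024325 to 49029398) opens the GMP branch. Positions are those of the whole genes in RefSeq's GRCh38.p14 table. No guide sequence or cut site is given.

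Sequencing gave 25082426 to 38428425 counts per sample, the fewest in SETD2-mutant replicate 1. The 70 purine guides took 0.0416% and 0.0448% of all counts in SETD2-mutant cells, 0.0220% and 0.0208% in parental cells and 0.0978% and 0.0977% in the library. The share was thus lowest in parental cells, and the SETD2-mutant samples lay between them and the library without overlap. Guides to SETD2 itself had a mean log2 change from library of −0.61 (SE 0.48 over guides) in SETD2-mutant cells, where it was not called (adjusted p = 0.736 by edgeR and RRA), and of −1.12 (SE 0.31, adjusted p = 0.000293) in parental cells, where it was depleted. SETD2 guides were higher in SETD2-mutant than in parental cells by 0.50 (SE 0.22, adjusted p = 0.00629), and no value here measures the genotype directly.

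All 7 enzymes lost guides in parental cells, by 5.12-fold for ADSS to 13.7-fold for PAICS, and all 7 lay closer to the library in SETD2-mutant cells. In SETD2-mutant cells GART, PFAS, PAICS, ADSL and IMPDH2 were still depleted, by 2.59-fold for PFAS to 5.34-fold for ADSL. ATIC and ADSS were not called there, at 1.43-fold and 2.21-fold below the library. Between the lines the mean log2 change of the 7 genes ran from 1.01 for IMPDH2 to 1.94 for GART in the fit, with the SETD2-mutant cells higher for each. The lower end was 0.75, for ADSL, with an ADSL guide at 0 parental counts set to a bound, and on log2 CPM the ends were 0.82 for ADSL and 1.85 for ATIC. Values below are mean log2 fold changes over the 10 guides of a gene from edgeR, with the standard error (SE) over guides. Genes were called depleted or enriched by robust rank aggregation (RRA), at an adjusted p below 0.05 over all genes. RRA asks whether the guides of a gene crowd to one end of the ranking of all guides. Its p-values thus measure agreement among guides, and replicate spread enters only through the guide ranking.

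**Figure D1:**
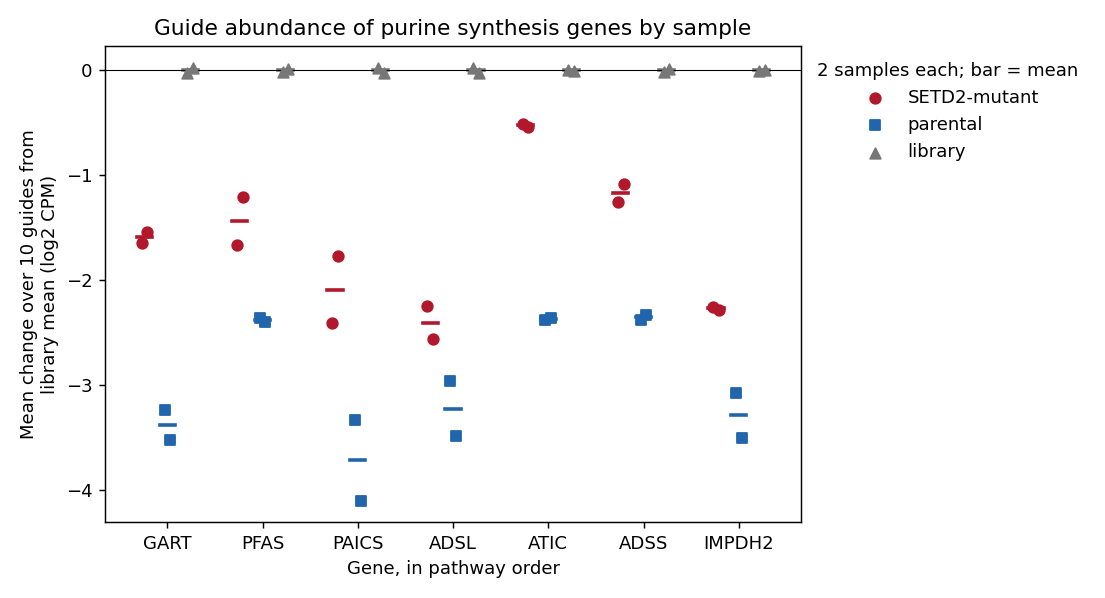
Mean change over the 10 guides of each gene from the library mean, in log2 CPM (counts scaled to sample depth), for the 2 samples of each group, with genes in pathway order and bars at group means. For every gene both SETD2-mutant samples lie above both parental samples, and ATIC in SETD2-mutant cells lies closest to the library, at −0.51 and −0.54.

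Among the enzymes that build the ring, GART had summed abundances over its 10 guides of 41.4% and 44.4% of the library level in the SETD2-mutant samples, against 22.6% and 24.3% in the parental samples. The SETD2-mutant and parental samples did not overlap. On the log2 scale, averaged over guides, its samples stood at −1.65 and −1.54 in SETD2-mutant cells and −3.24 and −3.52 in parental cells. Guides to GART were depleted in parental cells by −3.52 (SE 0.79, adjusted p = 7.76e-06 by edgeR and RRA) and in SETD2-mutant cells by −1.58 (SE 0.35, adjusted p = 0.00864). The call in SETD2-mutant cells was lost without SETD2-mutant replicate 1 (adjusted p = 0.107 by edgeR and RRA) and without SETD2-mutant replicate 2 (0.151).

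PFAS kept 43.7% and 50.5% of the library level in SETD2-mutant cells and 33.8% and 36.7% in parental cells. The groups did not overlap, though they are close on the summed scale, and the averaged log2 changes set them further apart, at −1.66 and −1.21 in SETD2-mutant cells and −2.36 and −2.40 in parental cells. It was depleted in parental cells by −2.44 (SE 0.62, adjusted p = 5.48e-05 by edgeR and RRA) and in SETD2-mutant cells by −1.37 (SE 0.33, adjusted p = 0.0107). In parental cells its guides had a standard deviation of 1.96, against 0.72 for ATIC and 1.11 for ADSS.

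PAICS, the enzyme with the lowest mean in parental cells, kept 24.8% and 34.2% of the library level in SETD2-mutant cells and 14.8% and 10.8% in parental cells. Both replicate pairs were loose here, with log2 changes of −2.41 and −1.77 in SETD2-mutant cells and −3.33 and −4.10 in parental cells, yet the groups stayed 0.92 apart. PAICS was depleted by −3.78 (SE 0.53, adjusted p = 1.11e-06 from edgeR with RRA) in parental cells and by −2.04 (SE 0.36, adjusted p = 0.00069) in SETD2-mutant cells.

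ADSL kept 26.8% and 22.03% of the library level in SETD2-mutant cells and 23.9% and 16.5% in parental cells, so on the summed scale the groups overlapped. Averaged over guides the log2 changes were −2.24 and −2.56 in SETD2-mutant cells and −2.96 and −3.48 in parental cells, and the gap of 0.40 between the groups was the smallest of the 7. ADSL was depleted in both lines, by −3.62 (SE 1.00, adjusted p = 6.10e-06 from edgeR with RRA) in parental cells and by −2.42 (SE 0.36, adjusted p = 6.10e-05) in SETD2-mutant cells. One of its guides, HZD_MET_00573, had 13 and 12 counts in SETD2-mutant cells, 0 in both parental samples and 509 and 460 in the library, so its parental level is a bound. Against a floor of 3 counts in each parental sample, that guide was at least 5.18-fold higher in SETD2-mutant than in parental cells, and at least 156-fold lower in parental cells than in the library. With the guide at this bound, the mean of ADSL was −3.17 in parental cells against library and 0.75 between the lines. Without it the mean between the lines was 0.57 (SE 0.34, 9 guides), against 1.20 in the fit that included it.

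ATIC stood apart from the other ring-building enzymes in how near it came to the library in SETD2-mutant cells. Its guides summed to 74.7% and 76.0% of the library level there, and to 21.1% and 20.9% in the parental samples. Replicates of a line lay close together on the log2 scale, at −0.51 and −0.54 in SETD2-mutant cells and −2.38 and −2.36 in parental cells. ATIC was depleted in parental cells by −2.38 (SE 0.23, adjusted p = 3.45e-09 by edgeR and RRA). In SETD2-mutant cells it stood at −0.51 (SE 0.12, 9 of 10 guides down), which RRA did not call (adjusted p = 1), while limma on the gene means (−0.52, adjusted p = 0.000202) and edgeR on counts summed per gene (−0.50, adjusted p = 7.58e-05) did. limma called 39.1% of all genes depleted in SETD2-mutant cells and summed counts 32.7%. The call thus depended on the test, and the value was small beside the parental one.

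Of the enzymes that lead away from IMP, ADSS on the AMP branch kept 51.8% and 59.0% of the library level in SETD2-mutant cells and 24.5% and 24.9% in parental cells. The groups lay 1.08 apart on the log2 scale, with −1.25 and −1.08 in SETD2-mutant cells and −2.37 and −2.33 in parental cells. ADSS was depleted in parental cells by −2.36 (SE 0.35, adjusted p = 9.85e-07 by edgeR and RRA). In SETD2-mutant cells it was at −1.14 (SE 0.35, 10 of 10 guides down, adjusted p = 0.149), where limma (−1.17, adjusted p = 3.56e-06) and summed counts (−0.94, adjusted p = 7.77e-06) called it depleted.

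IMPDH2, the rate-limiting enzyme of the GMP branch, kept 26.6% and 27.8% of the library level in SETD2-mutant cells and 17.5% and 17.0% in parental cells. Its log2 changes were −2.26 and −2.28 in SETD2-mutant cells and −3.07 and −3.50 in parental cells. IMPDH2 was depleted by −3.30 (SE 0.55, adjusted p = 1.74e-05 from edgeR with RRA) in parental cells and by −2.29 (SE 0.42, adjusted p = 6.53e-05) in SETD2-mutant cells. The branches from IMP thus differed in their values in SETD2-mutant cells, with IMPDH2 near the level of ADSL and ADSS between ATIC and PFAS. This order was not tested.

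In parental cells 7 of 7 enzymes were depleted, where 9.90% of all 7090 genes were, with a median of −3.30 for the 7, or −3.17 with ADSL at its bound, and −0.02 for all genes. The median of 51 ribosomal proteins, a common yardstick of essential genes, was −3.58. In SETD2-mutant cells 5 of 7 were depleted, where 9.06% of all genes were, with a median of −1.58 for the 7, −0.05 for all genes and −4.13 for the ribosomal proteins. By their medians, purine enzymes and ribosomal proteins stood closer together in parental than in SETD2-mutant cells. This is not independent of the difference between the lines, which was known when the 7 genes were chosen. The count of 5 in SETD2-mutant cells fell to 2, ADSL and PAICS, at an RRA rank share limit of 0.1 in place of 0.25, and also to 2 when samples were scaled on the guides labelled dummyguide. The 2 comparisons with the library share the library samples.

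**Figure D2:**
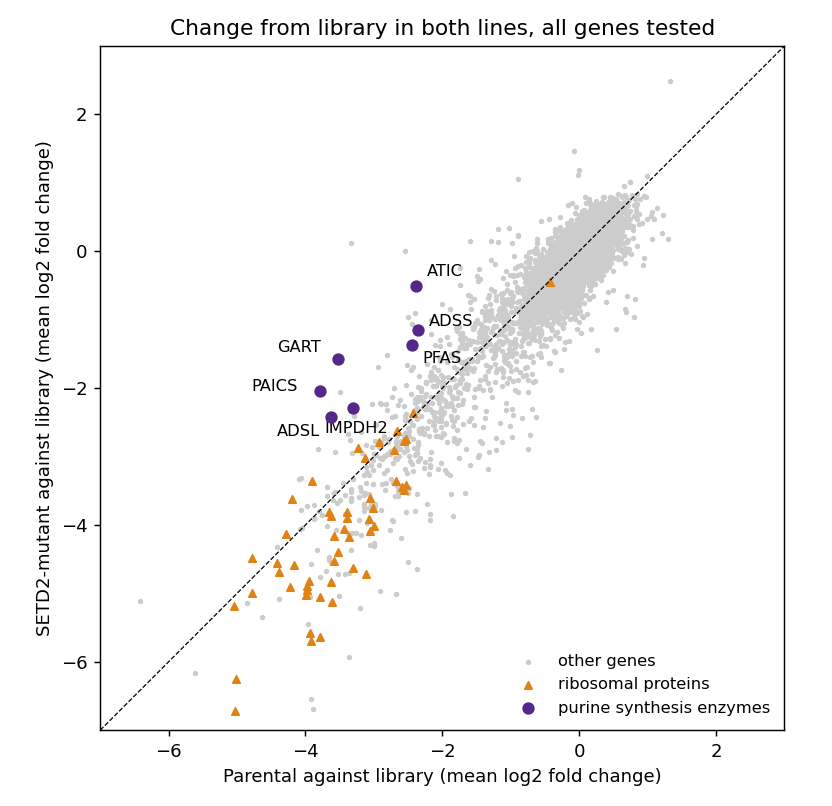
Mean log2 fold change against library in parental cells (x axis) and SETD2-mutant cells (y axis) for all 7090 genes tested, with a dashed line where both are equal. The 7 purine enzymes lie above the line, by 1.01 to 1.94, while 42 of 51 ribosomal proteins lie below it.

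Between the lines, described without a test, GART was higher in SETD2-mutant cells by 1.94 (SE 0.52), ATIC by 1.87 (SE 0.24), PAICS by 1.74 (SE 0.32), ADSS by 1.21 (SE 0.16), ADSL by 1.20 (SE 0.70), PFAS by 1.07 (SE 0.50) and IMPDH2 by 1.01 (SE 0.44). As folds these are 2.02 for IMPDH2 to 3.84 for GART. GART, ATIC and PAICS ranked 4, 5 and 6 from the top of all 7090 genes, and IMPDH2 ranked 41. The GART mean includes the guide HZD_ODT_03612 at 5.63, with 2 and 0 parental counts, for which no bound was set. Medians over guides were 1.53 for GART, 1.63 for ATIC and 1.57 for PAICS. With the ADSL guide at 0 counts set to its bound, ADSL at 0.75 lay below IMPDH2. For all 7 genes both SETD2-mutant samples lay above both parental samples, as they did for 26.9% of all genes. RRA placed GART, PFAS, PAICS, ATIC and ADSS, 5 of 7, among the enriched genes, which were 1.03% of all genes, and placed 0 of 7 among the depleted genes, which were 1.28% (0 also at an unadjusted p below 0.05, by limma and by summed counts). limma placed 7 of 7 among the enriched genes, where it called 14.6% of all genes, and summed counts placed 6 of 7 there, without ADSL, where they called 20%. Counts summed over guides, which weigh well-represented guides more, gave smaller differences for GART (0.88), PFAS (0.43), PAICS (1.21), ADSL (0.27) and IMPDH2 (0.66). ATIC (1.85) and ADSS (1.17) moved little. Among the 702 genes depleted in parental cells 6.55% were enriched between the lines, a share that uses the same parental samples as the members' own. PAICS left the enriched genes without SETD2-mutant replicate 2, at 1.31. No reading of the pathway is drawn from these counts, since the genes were chosen with this difference known.

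The size of the difference can be set against replicate spread. Differences are between group means of log2 CPM (counts scaled to sample depth, n = 2 per line). The ± value is the root of the summed squares of the SDs of the lines. It describes a difference between single samples and is wider than the SD of a difference of means. ATIC differed between the lines by 1.85 ± 0.02, ADSS by 1.18 ± 0.12, GART by 1.79 ± 0.22 and IMPDH2 by 1.02 ± 0.30. PFAS differed by 0.94 ± 0.32, ADSL by 0.82 ± 0.43 and PAICS by 1.62 ± 0.71. ATIC and GART therefore had nearly the same difference, and ATIC had much the tighter replicates. The orders of ADSS, IMPDH2, PFAS and ADSL fall within these spreads.

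Guides of 1 gene share a target and are not replicates, but they show how evenly the loss was carried. Over the 70 guides, 67 were below the library in parental cells and 63 of them by more than 1 on the log2 scale. In SETD2-mutant cells 66 were below the library and 44 by more than 1. Of the 63 strongly lost guides in parental cells, 42 were also lost by more than 1 in SETD2-mutant cells and 21 were not. In 51 guides both SETD2-mutant samples were above both parental samples, and in 2 they were below. The same count over all guides of the screen was not computed, so how unusual 51 of 70 is was not tested. The genes were also chosen with the difference between the lines known. Across the 70 guides, which share samples and depth, the changes in the lines had a Pearson correlation of 0.722. It includes the ADSL guide HZD_MET_00573, fitted at −11.81 in parental cells from 0 counts in both samples. It also includes the GART guide HZD_ODT_03612, at −8.71 from 2 and 0 counts. No value without these guides was computed.

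**Figure D3:**
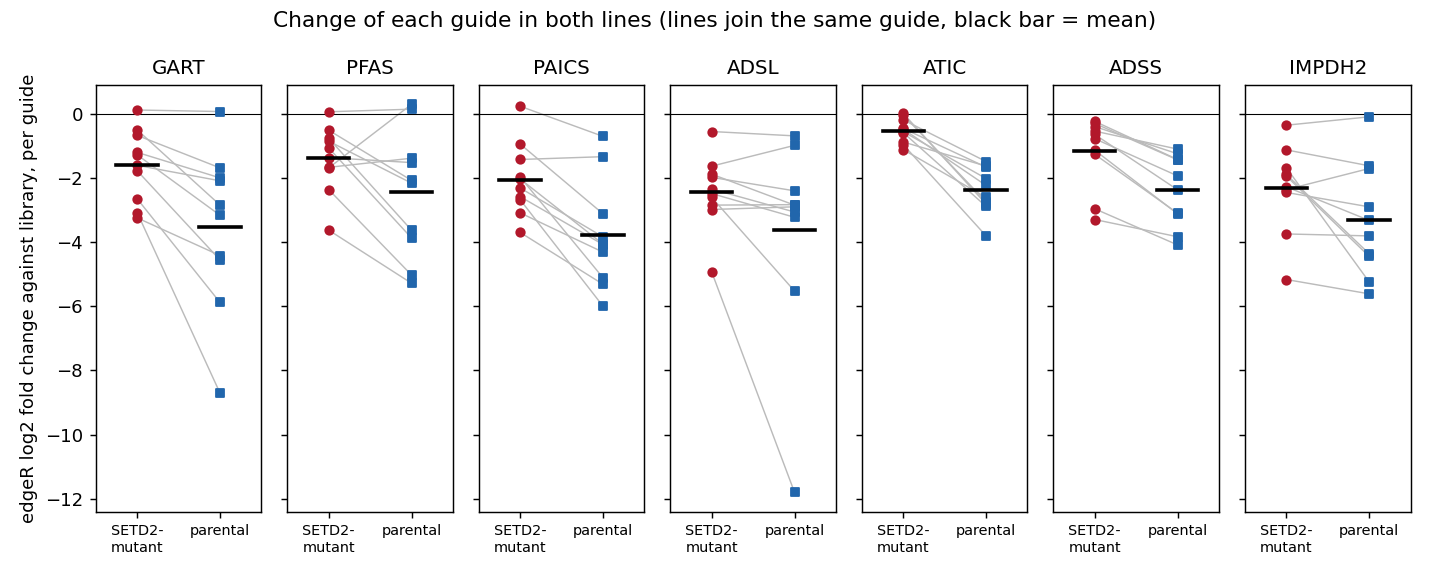
edgeR log2 fold change against library for each of the 10 guides of every gene, in SETD2-mutant cells (circles) and parental cells (squares), with lines joining the same guide and black bars at the means. All 10 guides of ATIC and of ADSS are higher in SETD2-mutant cells, and the lowest ADSL point, at −11.81, comes from a guide with 0 counts in both parental samples.

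The ATIC guides lay close together within each line, with a standard deviation over guides of 0.38 in SETD2-mutant cells and 0.72 in parental cells. In parental cells they ran from −3.80 to −1.48, and in SETD2-mutant cells from −1.11 to 0.02. The ADSS guides fell into unequal parts in SETD2-mutant cells. There HZD_MET_00583 and HZD_MET_00590 stood at −2.95 and −3.29, and the median of all 10 was −0.70, well above the mean of −1.14. The ATIC median there was −0.51. Between the lines the standard deviation over guides was 0.50 for ADSS and 0.75 for ATIC.

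In parental cells and between the lines, though not in SETD2-mutant cells, GART had the widest spread over guides after ADSL. Its guide HZD_ODT_03612 had 27 and 68 counts in SETD2-mutant cells, 2 and 0 in parental cells and 498 and 472 in the library. HZD_ODT_03618 had 320 and 365 counts in SETD2-mutant cells, 347 and 457 in parental cells and 398 and 392 in the library, and so stayed near the library level in both lines. The guide nearest the GART median in parental cells, HZD_ODT_03617, had 135 and 189 counts in SETD2-mutant cells, 83 and 25 in parental cells and 526 and 450 in the library. The median over GART guides between the lines was 1.53, against the mean of 1.94, and 10 of 10 guides were higher in SETD2-mutant cells.

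Guides nearest the parental median of 4 other genes show the same order of samples. The PFAS guide HZD_ODT_07277 had 267 and 326 counts in SETD2-mutant cells, 177 and 117 in parental cells and 693 and 645 in the library. The PAICS guide HZD_ODT_07037 had 140 and 255 counts in SETD2-mutant cells, 77 and 39 in parental cells and 1052 and 923 in the library. Normalised to depth, both of these guides were higher in each SETD2-mutant sample than in either parental sample. The ATIC guide HZD_MET_00948 had 156 and 133 counts in SETD2-mutant cells, 56 and 71 in parental cells and 421 and 380 in the library. The IMPDH2 guide HZD_ODT_04840 had 34 and 42 counts in SETD2-mutant cells, 15 and 29 in parental cells and 250 and 211 in the library. Of these 4 guides the IMPDH2 guide had the fewest counts, and counting error weighs most on it.

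PFAS guides split by direction. Between the lines 7 were higher in SETD2-mutant cells, up to 2.87, and 3 were lower. One of the 3, HZD_ODT_07281, had 69 and 93 counts in SETD2-mutant cells, 279 and 485 in parental cells and 344 and 305 in the library, a change of −1.98 between the lines and the only one below −1 among the 70 guides. Scaled to depth it had 2.75 CPM in both SETD2-mutant samples, 7.35 and 14.4 CPM in parental cells, and 8.88 and 8.71 CPM in the library. The SETD2-mutant samples were thus the lowest, whereas the parental samples were the lowest for HZD_ODT_07283, with 82 and 219 counts in SETD2-mutant cells, 30 and 18 in parental cells and 298 and 308 in the library. The PFAS median between the lines, 1.44, was above its mean of 1.07.

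For ADSL and IMPDH2 the difference between the lines rested on fewer guides. Only 2 ADSL guides and 4 IMPDH2 guides were more than 1 higher in SETD2-mutant cells, against 9 for ATIC, 8 for PAICS, 7 each for GART and ADSS and 6 for PFAS. The medians over guides were 0.57 for ADSL and 0.47 for IMPDH2, below the means of 1.20 and 1.01. Of the IMPDH2 guides, HZD_ODT_04838 was the highest between the lines at 3.57, with 106 and 182 counts in SETD2-mutant cells, 19 and 10 in parental cells and 633 and 498 in the library. HZD_ODT_04837 was lost almost fully in both lines, with 14 and 14 counts in SETD2-mutant cells, 12 and 13 in parental cells and 661 and 611 in the library.

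Of 9 other listed genes of purine synthesis, 5 were measured. These were the PRPP synthetases PRPS1, PRPS2 and PRPS1L1, which make the ribose donor, and the second copies IMPDH1 and ADSSL1. PPAT, GMPS, PRPSAP1 and PRPSAP2 were listed and not measured, so no value here speaks to them. In each comparison edgeR and RRA called 0 of the 5. At an unadjusted p below 0.05, RRA had 2 higher between the lines and none against library, and limma called 2 lower and 2 higher between the lines. Against library limma called 2 lower and 3 higher in SETD2-mutant cells and 1 each way in parental cells. Of all 7090 genes limma called 1730 lower and 1035 higher between the lines. Against library it called 2773 and 1797 in SETD2-mutant cells and 2272 and 1807 in parental cells. At an unadjusted p below 0.05, RRA had 485 of all genes higher between the lines. Between the lines PRPS1 was at 0.23 (SE 0.23), PRPS2 at −0.35 (SE 0.35), PRPS1L1 at 0.32 (SE 0.12), IMPDH1 at −0.30 (SE 0.22) and ADSSL1 at 0.10 (SE 0.10). In parental cells IMPDH1 stood at 0.04 (SE 0.07) against library and ADSSL1 at 0.08 (SE 0.15), where IMPDH2 stood at −3.30 and ADSS at −2.36. Of each pair, the copy among the 7 enzymes was thus depleted in parental cells, and the other copy was not called.

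Purine salvage and turnover had 12 of 17 listed genes measured, with 0 depleted by edgeR and RRA in any comparison. Against library 0 were also lower at an unadjusted p below 0.05, while limma called 4 depleted in SETD2-mutant cells and 3 in parental cells. Of all 7090 genes limma called 2773 and 2272 depleted in these comparisons. In parental cells 1 of the 12 was enriched by edgeR and RRA, the mitochondrial deoxyguanosine kinase DGUOK at 0.76 (SE 0.09, adjusted p = 0.00195). Between the lines 536 of all 7090 genes were lower at an unadjusted p below 0.05, and limma called 1730 lower. The median of the 12 there was −0.11 and 0 of 12 were called, with 2 lower at an unadjusted p below 0.05 and 5 lower by limma. The largest of these differences were −0.40 for DGUOK, −0.38 for the xanthine oxidase gene XDH, −0.25 for APRT, which salvages adenine, and −0.20 for the AMP deaminase AMPD3. HPRT1, which salvages hypoxanthine and guanine and is named here for that role after its values were seen, stood at −0.09 (SE 0.18) in SETD2-mutant cells and 0.08 (SE 0.18) in parental cells against library. APRT stood at −0.40 (SE 0.31) in SETD2-mutant cells and −0.15 (SE 0.23) in parental cells, where the 7 de novo enzymes were depleted.

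GUK1, which phosphorylates GMP on its way to GTP, was depleted in both lines, by −3.93 (SE 0.54, adjusted p = 1.87e-07 by edgeR and RRA) in SETD2-mutant cells and −3.21 (SE 0.35, adjusted p = 3.17e-07) in parental cells. Between the lines it stood at −0.71 (SE 0.49), which was not called, and so on the other side of 0 from IMPDH2 earlier in the GMP branch. Of the other nucleotide kinases measured, AK7 stood at −0.20 (SE 0.21) and AK5 at 0.12 (SE 0.11) between the lines, and neither was called.

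Folate carries the carbons that GART and ATIC add. Of 16 listed folate genes 12 were measured, with 3 depleted in SETD2-mutant cells and 6 in parental cells, and 4 were enriched between the lines. MTHFD1, which makes the formyl folate that both enzymes use, was at −0.96 (SE 0.31, adjusted p = 0.117 by edgeR and RRA) in SETD2-mutant cells and −2.50 (SE 0.51, adjusted p = 5.45e-05) in parental cells. FPGS, which holds folates in the cell by adding glutamates, was at −0.49 (SE 0.15) in SETD2-mutant cells, where it was not called, and depleted by −1.75 (SE 0.31) in parental cells. The mitochondrial enzyme MTHFD1L and the mitochondrial folate carrier SLC25A32 were at 0.91 and 0.74 between the lines, and SLC25A32 was not called (adjusted p = 0.202 by edgeR and RRA). Of the 6 measured genes of pyrimidine synthesis, 3 were enriched between the lines and 0 were depleted in SETD2-mutant cells. There 1 was lower at an unadjusted p below 0.05 and 1 was depleted by limma, which called 39.1% of all genes depleted. The enriched genes were CAD at 3.45, UMPS at 2.54 and DHODH at 1.74 between the lines. In SETD2-mutant cells they stood at 0.12, 0.00 and 0.14 against library, where the 7 purine enzymes stood at −2.42 to −0.51. The fourth named pyrimidine gene, the UMP and CMP kinase CMPK1, was at −0.33 between the lines.

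**Figure D4:**
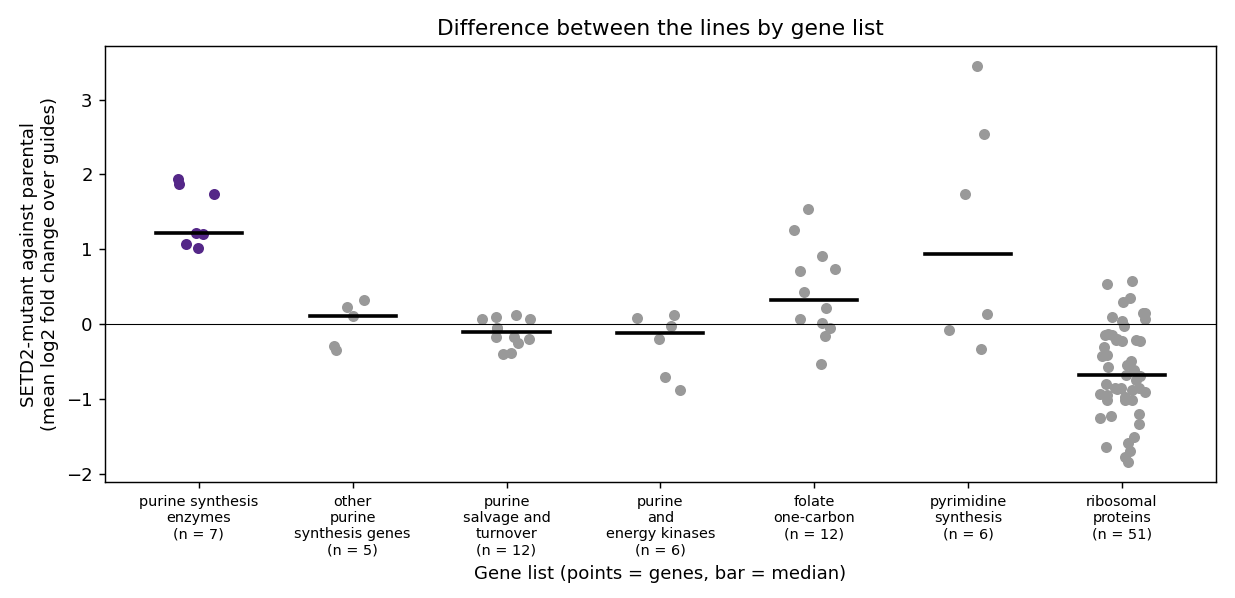
Mean log2 fold change of SETD2-mutant against parental cells for each gene (points) of the 7 purine enzymes and of 6 other lists, with bars at the medians. The 7 enzymes have a median of 1.21, the folate genes 0.32, the pyrimidine genes 0.94 and the ribosomal proteins −0.68, and the other purine lists lie between −0.12 and 0.10.

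By position in the plane of changes from library, the genes nearest to ATIC were USE1 at a distance of 0.39, AMD1 at 0.46, MTHFD1 at 0.46, SDHB at 0.54 and UMPS at 0.54. Those nearest to the median point of the 7 enzymes were EMC7 at 0.39, TMX2 at 0.50, TKT at 0.52, TFRC at 0.70 and OGDH at 0.71. Distances are Euclidean, in log2 units, over the mean changes of 2 lines, and the members themselves were left out.

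Genes near each enzyme on its chromosome were looked at in the same way, since a difference in copy number between the lines would move neighbours together. The 10 tested genes nearest to ATIC had a median of 0.24 between the lines, and 10 of 10 were above 0, with the highest at 0.62 where ATIC was at 1.87. For the other 6 enzymes the median of the 10 neighbours lay between −0.39, for ADSL, and 0.15, for PFAS. IMPDH2 lies 1.86 megabases from SETD2 on chromosome 3, and its neighbours had a median of −0.35, opposite in sign to IMPDH2 itself. The part of such regional differences in the values of the 7 enzymes was not tested.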

How the data were processed

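Integrated guides were copied by PCR out of genomic DNA and sequenced with single-end reads of 75 bp, per the labels' protocols. The authors deposited raw counts per guide for 71626 guides, with no normalization. The values were whole numbers with totals that differ between samples. The submitters' processing notes name MAGeCK and hg38, with no role, version or settings given. All 6 columns were assigned by sample title. Members, gene lists, tests and the naming rule were all chosen with earlier results of these data known.

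The filter asked for at least 30 counts on average in the library and left 71570 guides. Counts were TMM-scaled and tested per guide across all guides and all 6 samples by group with edgeR 4.0.16 (glmQLFit, robust, and glmQLFTest) in R 4.3.3. One-sided guide ranks were combined per gene by RRA, rebuilt from its published description with an exact null and a rank share limit of 0.25. Genes with 3 or more guides were tested (7090), with Benjamini-Hochberg adjustment over all genes, separately for each direction. Values per sample are log2 CPM (counts scaled to sample depth) with a prior count of 2, or CPM summed over guides. The method was tested on simulated data. Alternatives used DESeq2 1.42.0 (per guide, and its size factors), limma 3.58.1, edgeR on counts summed per gene, other scalings, no filter, a replicate block and leaving out each sample. The named genes were the 7 enzymes, the measured other purine synthesis genes, up to 4 genes of each further list by absolute difference between the lines, and the 5 nearest genes in the plane. One gene that this rule names is not reported here. Symbols matched RefSeq for 6757 genes directly and for 316 by a synonym.

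Between replicates the chi-square per degree of freedom was 12.9 in SETD2-mutant, 14.1 in parental and 1.37 in library samples, where counting error gives about 1. Bounds cover counting error only.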

Additional observations from a re-analysis of the deposited data

Results flagged for a closer look

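In the comparison of the lines, which equals the difference between their changes from library, 5 of the 7 enzymes were called higher in SETD2-mutant than in parental cells. These were GART at 1.94, PFAS at 1.07, PAICS at 1.74, ATIC at 1.87 and ADSS at 1.21 on the log2 scale. The calls are by RRA, which called 1.03% of all 7090 genes higher, where limma called 14.6% and summed counts 20%. GART, ATIC and ADSS were higher in 10 of 10 guides, PAICS in 9 and PFAS in 7. The 7 genes were chosen with this difference known, so the calls are not independent evidence.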

How the results depend on the processing

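Of the recomputed values of single enzymes, 128 between the lines, 121 in parental and 120 in SETD2-mutant cells against library, 0 changed direction. All 7 enzymes were depleted in parental cells under each of the 16 alternatives with a test. In SETD2-mutant cells 5 were depleted, 4 to 5 when 1 sample was left out, 2 at an RRA rank share limit of 0.1 and 2 with dummyguide scaling, and the cause was not tested. Between the lines 5 were called higher, 4 to 5 when 1 sample was left out. Dummyguide scaling moved the median of all genes by −0.93 in SETD2-mutant cells against library, −0.72 in parental cells against library and −0.21 between the lines. The 7 enzymes then lay at −3.35 to −1.44 in SETD2-mutant cells, −4.50 to −3.08 in parental cells and 0.80 to 1.73 between the lines. It left 35 genes enriched in SETD2-mutant cells against library in place of 78. For equal ribosomal protein dropout, SETD2-mutant changes from library were multiplied by 0.866, the ratio of the ribosomal medians, parental over SETD2-mutant. The 7 enzymes then ran from 1.25 for PFAS to 2.15 for GART between the lines, with IMPDH2 at 1.32 and ATIC at 1.93. Summed counts per gene gave the smallest values between the lines for GART (0.88), PFAS (0.43), PAICS (1.21) and ADSL (0.27).

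Tests that take gene values and not guides as the unit called many more genes. Between the lines limma called 1730 genes depleted and 1035 enriched, and summed counts 1503 and 1417, where RRA called 91 and 73. Against library in parental cells the counts were 2272 and 1807 by limma, 2149 and 2092 by summed counts and 702 and 76 by RRA. In SETD2-mutant cells they were 2773 and 1797, 2320 and 2138, and 642 and 78. Leaving out 1 sample gave 63 to 89 depleted and 68 to 81 enriched genes between the lines, 668 to 699 and 72 to 88 in parental cells, and 591 to 643 and 49 to 80 in SETD2-mutant cells, with the 49 found without SETD2-mutant replicate 1.

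Deviations of same-numbered replicates correlated by −0.00336 to 0.00509 across genes. No pairing was seen, and with 2 samples per group these values cannot exclude one. With the replicate block 5 enzymes were depleted in SETD2-mutant cells, 7 in parental cells and 5 enriched between the lines, as without it, and 88 genes were depleted and 84 enriched between the lines. With 2 samples per group and guides that differ widely within a gene, an enzyme that was not called is not shown to be unchanged.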
